A study of Mus musculus with 2 samples.

Results

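The CaM kinases are protein kinases switched on by calmodulin, the small protein that binds calcium when it enters a cell. The rule named 10 mouse genes: the CaMKII isoform genes Camk2a, Camk2b, Camk2d and Camk2g, the CaMKI genes Camk1 and Camk1d, the CaMKIV gene Camk4, the upstream kinase genes Camkk1 and Camkk2, and Camkv, which encodes a kinase-like protein without catalytic activity. A probe set, the group of array probes summarised into 1 value, was used only where the platform annotation gave it a single gene. On this rule 9 of the 10 genes were measured, by 10 of the 34472 probe sets and among 22180 named genes. Camkk1 was not analysed here.

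The RNA came from ribosomes of the medial prefrontal cortex of adult D2Cre::RiboTag mice, in which cells that express Cre under the Drd2 driver carry a haemagglutinin tag on their ribosomes. An antibody to the tag precipitated the ribosomes, and the labels call the cells Drd2+ neurons. Cortices of 5 mice were pooled, and 2 arrays, given as technical replicates, form the only group. Each value is a log2 signal, and errors are SDs over the 2 arrays, which measure repeat error and not variation between mice.

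In cortical neurons calcium enters through NMDA receptors and voltage-gated channels and loads calmodulin. CaMKII, a large holoenzyme of mixed isoforms, can phosphorylate itself and so stay active after calcium has fallen, and it is abundant at excitatory synapses, where it is required for forms of long-term potentiation. CaMKI and CaMKIV act in a cascade: they reach full activity when CaMKK phosphorylates them, CaMKI mainly in the cytoplasm and CaMKIV mainly in the nucleus, where it acts on CREB-dependent transcription.

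All 9 measured CaM kinase genes gave signal above background on both arrays, against 60.3% of all named genes. Genes for olfactory and vomeronasal receptors, 1394 in all, set the background: their 95th percentile was 5.61 on replicate 1 and 5.66 on replicate 2. All 9 also exceeded a stricter level, the 95th percentile of 30 genes of testis, liver and skeletal muscle (the out-of-tissue threshold, at 7.29 and 7.15), which 37.6% of all named genes passed. As a description of these arrays, the median signal of the 9 genes was 10.43 and that of all named genes 6.36. With a single group there was no contrast to test, and in pooled tissue the number of cells and the RNA per cell cannot be told apart. Because no RNA from before the precipitation was analysed here, these signals do not measure enrichment in the tagged cells. Probe sets also bind with different strength, so the levels of different genes were not ranked against each other.

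The 4 CaMKII genes were all well above both thresholds. Camk2a, which encodes the alpha subunit that predominates in forebrain excitatory neurons, had signals of 12.41 on replicate 1 and 12.38 on replicate 2. Its mean of 12.40 ± 0.02 lay 6.76 log2 units over the mean background and 5.18 over the mean out-of-tissue threshold. Camk2b, the gene of the beta subunit, which binds actin filaments, had signals of 10.41 and 10.45. Its mean of 10.43 ± 0.03 was 4.79 units over background, and the arrays differed by 0.04.

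The CaMKII subunits delta and gamma are known from many tissues besides brain, and both genes gave signal here. Camk2g had signals of 10.97 and 11.00, a mean of 10.99 ± 0.02 that stood 5.35 units over background. Camk2d had signals of 9.55 and 9.40, with a mean of 9.48 ± 0.11 that was 3.84 units over background. The spread of Camk2d was the largest among the 9 genes, and its lower array was still 2.25 units over the out-of-tissue threshold. All 4 subunit types of the CaMKII holoenzyme were thus represented in the precipitated RNA.

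The effector kinases of the cascade and their activator followed. Camk1, which encodes CaMKI alpha, had a signal of 9.97 on replicate 1 and was higher by 0.03 on replicate 2. Its mean of 9.99 ± 0.02 stood 4.35 units over background. Camk1d, the gene of CaMKI delta, had signals of 9.69 and 9.59, a mean of 9.64 ± 0.07, and the arrays lay 4.08 and 3.93 units over background. Camkk2 encodes CaMKK beta, which phosphorylates CaMKI and CaMKIV and also activates the energy sensor AMPK. It had signals of 10.61 and 10.54, and its mean of 10.58 ± 0.05 stood 4.94 units over background and 3.36 over the out-of-tissue threshold.

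Camk4, the only gene of the 9 with more than 1 probe set, gave readings that depended on the probe set. The higher probe set had 10.25 and 10.24, which is 4.64 and 4.58 units over background. The lower one had 6.39 on both arrays, only 0.78 and 0.73 over background and at -0.90 and -0.76 from the out-of-tissue threshold. The gene's mean of 8.32 ± 0.004 therefore averages values 3.86 log2 units apart, and its small SD says only that each probe set repeated closely. Such gaps were common on this array: over the 968 genes with exactly 2 probe sets the median gap was 2.08, and 178 of them (18.4%) had a gap at least as large as that of Camk4. Which transcript parts the probe sets cover is not given in the sources used here. Of the 10 CaM kinase probe sets, 10 exceeded background and 9 the out-of-tissue threshold. Counted by gene, 60.3% and 37.6% of all named genes did.

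Camkv encodes a membrane-associated protein with a kinase fold and a calmodulin-binding segment but no catalytic activity, and it is known from brain, where it has been linked to the upkeep of dendritic spines. Its signals were 12.14 and 12.05. The mean of 12.10 ± 0.06 was 6.46 units over background and 4.88 over the out-of-tissue threshold.

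**Figure D1:**
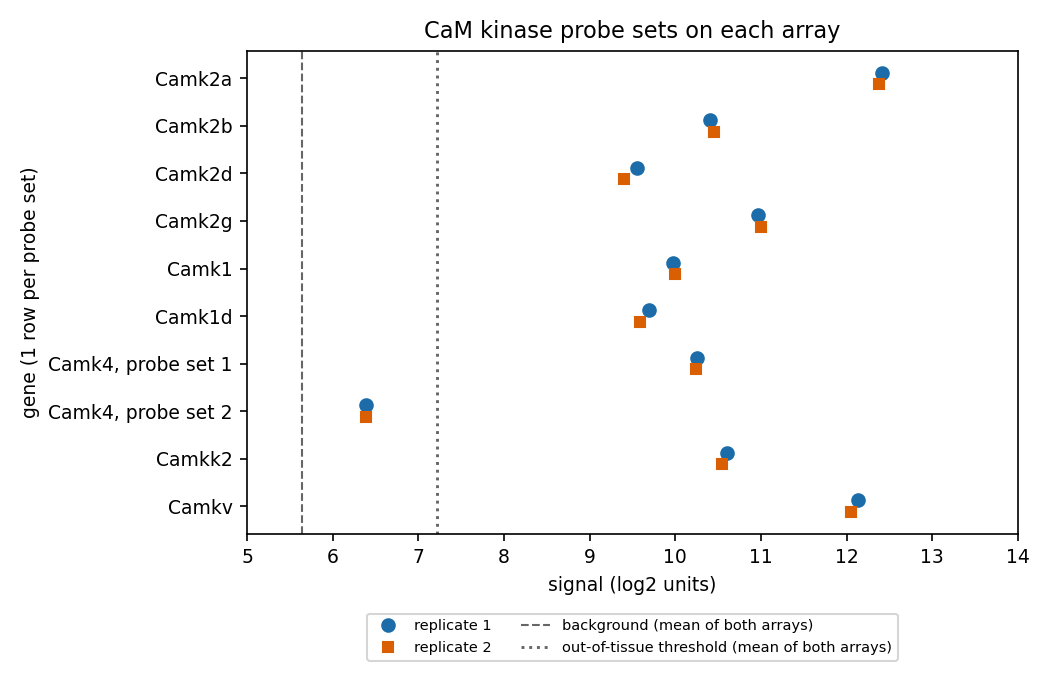
Log2 signal of each of the 10 CaM kinase probe sets (rows) on replicate 1 (circles) and replicate 2 (squares), with the mean background (dashed) and mean out-of-tissue threshold (dotted) of both arrays. The symbols of each row nearly coincide, and the second Camk4 probe set, at 6.39, is the only one left of the out-of-tissue threshold.

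The arrays repeated each of the 9 genes closely. Absolute differences ran from 0.005 for Camk4 to 0.15 for Camk2d, with a median of 0.04, against a median of 0.12 over all named genes. Since repeat error falls with signal, each gene was set beside all other named genes whose mean signal lay within 0.5 log2 units of its own. In all 8 genes with a single probe set the difference was below the 95th percentile of those genes, which lay between 0.18 and 0.22. By construction about 95% of genes lie below that percentile, and about as many lie below the median as above it, so these counts do not set the family apart. For 5 of these 8 it was at or below their median, and for Camk2d, Camk1d and Camkv it was above it. Neither Camk4 probe set lies near the mean of that gene. The 2646 genes in its window are therefore like that mean in signal and not like either probe set. The Camk4 probe sets differed between arrays by -0.01 and 0.00. Camk2d had the difference nearest to its 95th percentile, at 0.15 against 0.22 for 2018 genes of like signal. Replicate 2 was higher for 3 of the genes (Camk2b, Camk2g and Camk1) and lower for 6, among them Camk4 with a difference of only -0.005. Over all named genes the median difference, replicate 2 minus replicate 1, was -0.01.

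**Figure D2:**
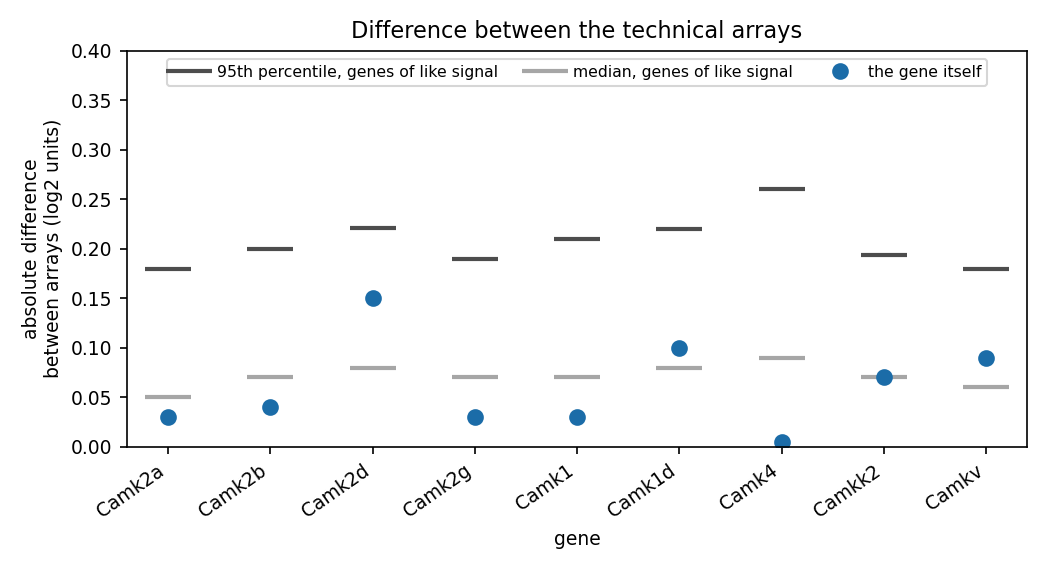
Absolute difference between the 2 technical arrays in log2 units (vertical axis) for each CaM kinase gene (points), beside the median (grey bar) and 95th percentile (dark bar) of named genes of like signal. The points of the 8 genes with a single probe set lie below their dark bars, with Camk2d at 0.15 the highest; the bars of Camk4 belong to its mean, a level that neither of its probe sets has.

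Genes that act with the kinases were described by lists, given by counts and medians. Of 61 measured genes in 8 lists, leaving out related kinases of other tissues, 59 were above background, against 60.3% of all named genes. Of the same 61 genes, 54 were above the out-of-tissue threshold, against 37.6%. With those kinases included, 64 of 73 genes were above background and 55 above the out-of-tissue threshold. The lists were written with earlier results of these data known, so these counts do not test them against all named genes. All 4 genes of proteins that bind calmodulin and buffer it gave signal: neurogranin (Nrgn) at 12.71 ± 0.09, the growth cone protein gene Gap43 at 10.66 ± 0.13, Pcp4 at 12.30 ± 0.00 and Marcks at 9.56 ± 0.05. Neurogranin is a postsynaptic protein that holds calmodulin at low calcium.

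Both genes of the endogenous CaMKII inhibitor proteins, which bind the active kinase, were above both thresholds (60.3% and 37.6% of all named genes). Camk2n1 had signals of 11.79 and 11.82, a mean of 11.81 ± 0.02. Camk2n2 had signals of 9.65 and 9.91, a mean of 9.78 ± 0.18. The array difference of Camk2n2, 0.26, exceeded that of every CaM kinase gene.

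By the means of their probe sets, all 9 measured synaptic partners and substrates of CaMKII exceeded both thresholds (60.3% and 37.6% of all named genes). Their median was 9.90. In each gene of this list with more than 1 probe set, the lower one was below the out-of-tissue threshold on both arrays. The AMPA receptor subunit gene Gria1, whose product CaMKII phosphorylates, was at 11.46 ± 0.01. The scaffold genes Dlg4 (PSD-95) and Lrrc7 (densin) were at 11.28 ± 0.04 and 10.90 ± 0.04, and the actin cross-linker gene Actn2 was at 7.40 ± 0.08. Grin2b, the NMDA receptor subunit that anchors CaMKII, averaged 8.61 ± 0.11 over probe sets at 11.35 and 5.87. Shank3, another scaffold gene, averaged 7.59 ± 0.01 over probe sets at 9.44 and 5.73, of which the lower one was above background on replicate 1 only. Wide gaps between probe sets, as in Camk4, were thus also seen in genes of CaMKII partners.

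Of the genes for calcium channels and for the store calcium sensors Stim1 and Stim2, 9 of 9 measured were above background. Their median was 9.81, and 60.3% of all named genes were above background. The L-type channel genes Cacna1c and Cacna1d were at 9.81 ± 0.02 and 8.30 ± 0.04, the P/Q-type gene Cacna1a at 10.05 ± 0.03 and the N-type gene Cacna1b at 10.09 ± 0.09. Of the ryanodine receptors, which release calcium from stores, Ryr2 was at 10.29 ± 0.13. Ryr3 at 6.70 ± 0.05 and the store-operated channel gene Orai1 at 6.43 ± 0.09, chosen for mention after its value was known, did not reach the out-of-tissue threshold.

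Downstream, all 10 measured genes of the CREB arm were above background (60.3% of all named genes), with a median of 9.66. Of these, 8 passed the out-of-tissue threshold (37.6% of all named genes). Creb1 was at 9.60 ± 0.04. The coactivator genes Crtc1, Crtc2 and Crtc3 were at 11.40 ± 0.04, 7.60 ± 0.06 and 8.07 ± 0.04, and the acetyltransferase genes Crebbp and Ep300 at 11.76 ± 0.08 and 9.96 ± 0.11. The members that did not pass it, named after their values were seen, were Crem at 5.77 ± 0.09 and the CREB target gene Bdnf at 7.14 ± 0.08. Crem was only 0.22 and 0.05 over background on the 2 arrays. Bdnf was at -0.21 and 0.04 from the out-of-tissue threshold, above it on replicate 2 only.

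The AMPK arm, a list named for the kinase that CaMKK beta activates, was above background in 8 of 8 genes (60.3% of all named genes). Its median was 9.13. The catalytic subunit genes Prkaa1 and Prkaa2 were at 9.37 ± 0.09 and 10.31 ± 0.04, the beta subunit genes Prkab1 and Prkab2 at 8.15 ± 0.21 and 8.95 ± 0.05, and the gamma subunit genes Prkag1 and Prkag2 at 9.93 ± 0.01 and 9.31 ± 0.07. Prkag3, a gamma subunit gene known from skeletal muscle, was also chosen for mention after its value was known. It had 5.78 ± 0.18, only 0.04 and 0.24 over background on the 2 arrays, and did not pass the out-of-tissue threshold.

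Of 9 measured genes of phosphatases that oppose CaM kinases, 8 passed both thresholds (60.3% and 37.6% of all named genes), with a list median of 8.91. The protein phosphatase 1 catalytic genes Ppp1ca and Ppp1cc were at 11.59 ± 0.02 and 8.07 ± 0.09. Ppp1cb was at 8.91 ± 0.03 over probe sets at 11.26 and 6.56, of which the lower one was below the out-of-tissue threshold on both arrays. The catalytic genes of calcineurin, itself activated by calmodulin, were at 12.79 ± 0.05 (Ppp3ca), 11.92 ± 0.07 (Ppp3cb) and 8.39 ± 0.11 (Ppp3cc). Ppp3r2, the calcineurin regulatory subunit known from testis, was not above background at 5.10 ± 0.11.

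Related kinases, with some partners, were counted in lists written as neuronal or as of other tissues. Among 10 measured genes of the list written as neuronal, 9 passed both thresholds (60.3% and 37.6% of all named genes). The list median was 9.88. The remaining CaMKI genes Camk1g and Pnck had 10.13 and 9.94, and 9.53 and 9.55, so that all 4 CaMKI isoform genes gave signal. The scaffold kinase gene Cask was at 9.82 ± 0.05, and the doublecortin-like kinase genes Dclk1, Dclk2 and Dclk3 at 11.63 ± 0.01, 10.12 ± 0.09 and 9.17 ± 0.05. The exception was Mylk, the smooth muscle myosin light chain kinase gene, with 5.74 and 5.32, above background on replicate 1 only.

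Among 12 measured kinase genes of the group known from muscle, liver or testis, 5 were above background, beside 60.3% of all named genes, and 1 was above the out-of-tissue threshold, beside 37.6%. With background raised to the 99th percentile 2 of the 12 passed, beside 45% of all named genes. The list median was 5.62. Phkg2, the phosphorylase kinase subunit known from liver and testis, was the gene above both, at 9.65 ± 0.12. The muscle genes Mylk2, Mylk3 and Phkg1 were at 5.84 ± 0.19, 6.80 ± 0.15 and 6.47 ± 0.21, and the testis kinase gene Tssk2 at 5.91 ± 0.00. Mylk4 at 4.36 ± 0.20 and Stk33 at 5.56 ± 0.12 were not above background.

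**Figure D3:**
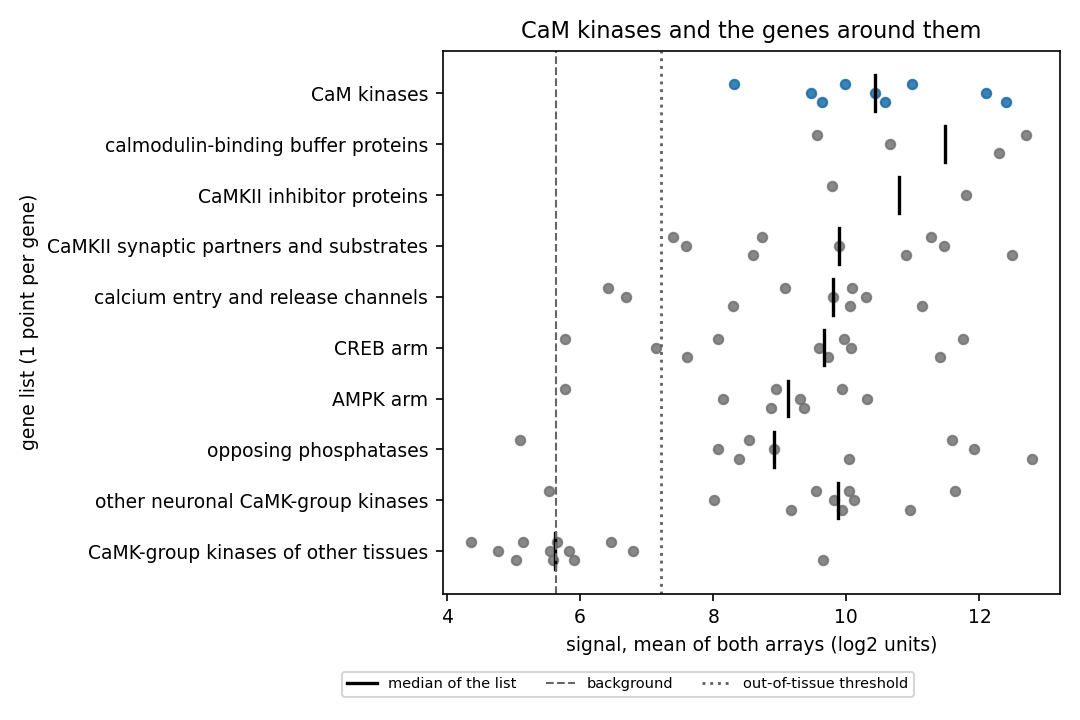
Mean log2 signal of both arrays (horizontal axis) for each measured gene of the CaM kinases (top row) and of the lists around them, with list medians (black bars), background (dashed) and the out-of-tissue threshold (dotted). All 9 CaM kinase genes lie right of the out-of-tissue threshold by their means, as does 1 of the 12 related kinases of other tissues.

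Markers of the cells the precipitate could hold were measured beside the kinases. Drd2 itself had signals of 10.78 and 10.70. All 6 measured glutamatergic markers were above background (median 10.54, range 7.33 to 12.30), and 5 passed the out-of-tissue threshold. Slc17a7 was at 12.30 ± 0.03, Neurod2 at 10.81 ± 0.08 and Neurod6 at 10.28 ± 0.02. Slc17a6, at 7.33 ± 0.06, was the marker that did not pass, at -0.003 and 0.22 from the threshold on replicates 1 and 2. All 7 measured GABAergic markers passed both thresholds (median 8.98, range 8.23 to 13.71). Gad1 was at 8.85 ± 0.09, Gad2 at 11.50 ± 0.01 and Dlx2 at 8.52 ± 0.20. Slc32a1 averaged 8.98 ± 0.10 over probe sets at 10.79 and 7.17, of which the lower one passed the out-of-tissue threshold on replicate 1 only. Astrocyte (7 of 7), oligodendrocyte (5 of 5), microglia (6 of 6) and vascular markers (6 of 6) were also above background, where 60.3% of all named genes were, with medians of 7.82, 8.22, 7.16 and 6.82. Their ranges, in that order, were 6.67 to 9.51, 7.15 to 9.39, 5.85 to 7.84 and 6.04 to 8.04. The stricter level, passed by 37.6% of all named genes, was passed by 5 astrocyte, 4 oligodendrocyte, 3 microglia and 1 vascular marker. The mean of each of these 38 markers was above background. The vascular marker Rgs5 was so only by its mean, as its lower probe set was at -0.18 and -0.40 from background on replicates 1 and 2. How much of the CaM kinase signal came from any of these cell types was not tested.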

How the data were processed

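Per the labels' protocols, RNA was taken from anti-haemagglutinin precipitates with Trizol and a column and labelled with the Affymetrix WT Plus kit. The deposited table gives 1 value per probe set and array, ranging from 1.66 to 14.18. These deposited values were taken as log2 signal from their range. The log base, background correction, summarisation and normalization chosen by the authors are not given in any source used here. The columns have medians of 5.80 and 5.81. The number of arrays limits the precision.

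The platform annotation supplied gene names: 23521 named 1 gene, 1814 named several and were not used, and 9137 are unnamed here. Probe sets of a gene were averaged with Python 3.11.15 and pandas 2.3.3. A gene was above a threshold where it exceeded it on both arrays. No p-value is given, since there is 1 group of technical arrays. Gene positions are not given because no genome build is named for the values. On simulated arrays, background calls were checked only for genes placed far from the threshold relative to the noise. Genes near a threshold, the averaging of probe sets and the windows of like signal were not checked in this way.

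Members and lists were chosen with earlier results of these data known. All CaM kinase genes were named, with the 6 measured genes written first in each list. Also named were members on the other side of background from most of their list and members with probe sets on both sides of it. Orai1, Crem, Bdnf and Prkag3 fall outside this rule and were chosen after their values were seen. Markers were the first 4 of each list, of which some are named, and Rgs5, added after its values were seen. Alternatives were other thresholds, the highest or lowest probe set, single-probe-set genes, quantile normalization, each array alone and a narrower window of like signal.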

Additional observations from a re-analysis of the deposited data

How the results depend on the processing

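All measured CaM kinase genes were above background in these settings: 9 of 9 with the sensory receptor genes' 99th percentile, with the median of all probe sets or with the highest or the lowest probe set, after quantile normalization and on either array alone, and 8 of 8 among genes with a single probe set, which leaves out Camk4. In these settings 45.0% to 62.5% of all named genes were above background. The exceptions concern Camk4. With the lowest probe set of each gene, 8 of 9 passed the out-of-tissue threshold (41.9% of all named genes), with Camk4 at -0.47 log2 units from it. The signal of Camk4 was 10.25 with its highest and 6.39 with its lowest probe set. Against the highest sensory receptor gene, at 8.40 and 8.42, an alternative chosen after seeing the data, 8 of 9 passed, and Camk4 was at -0.11 units. The array differences stayed below the 95th percentile of like genes in 9 of 9 cases, Camk4 counted by its mean, after quantile normalization and with a window of 0.25 units. By construction about 95% of like genes lie below it. Over all lists, 64 of 73 genes were above background (60.3% of all named genes), 65 on each array alone (62.5% on replicate 1 and 61.7% on replicate 2), 58 at the 99th percentile (45.0%) and 46 against the highest sensory receptor gene (23.2%). Related kinases of other tissues numbered 5 of 12 above background, 2 at the 99th percentile and 1 against the highest sensory receptor gene; genes of the CREB arm numbered 10 of 10 and, in the last setting, 6. The out-of-tissue threshold rests on 30 genes and lies between Apoa2 (7.09 and 6.67) and Odf1 (7.46 and 7.54). Odf1 itself averages a probe set at 9.94 and 10.09 and another at 4.98 on both arrays. Camk4, the CaM kinase gene with the lowest mean, was 1.03 units above the threshold on replicate 1 and 1.17 on replicate 2. No paired analysis was possible because the arrays form a single group. No detection p-value or control probe was used, so background is known only through other genes' probe sets.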
